A study of Mus musculus with 20 samples.

Results

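The mitochondrial ribosomal proteins described here are the 75 genes whose symbol in the deposited expression table starts with Mrpl or Mrps followed by a digit, out of 21928 gene symbols in that table. Each was represented by 1 probe set, the set of oligonucleotide probes that reads a transcript on the array. By the names of the proteins and the known structure of the mammalian particle, 49 belong to the large subunit and 25 to the small subunit. Mrps30 and Mrps18a sit in the large subunit despite their names, and Mrps36 sits in neither, since it is a subunit of the alpha-ketoglutarate dehydrogenase complex. In all, 74 passed the filter on dim probe sets, and Mrpl43, a large-subunit protein, did not.

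Mitochondrial ribosomes translate the few messenger RNAs encoded by mitochondrial DNA, all of which specify membrane subunits of the respiratory chain and ATP synthase. Their RNA comes from mitochondrial DNA, whereas every protein of the particle is encoded in the nucleus and imported. Some of the proteins descend from those of the bacterial ribosome and others were added in mitochondria: here 47 were classed as having bacterial kin and 27 as mitochondria-specific. Regulatory T cells (Treg cells), which restrain immune responses and express the transcription factor Foxp3, build up mitochondria when they are activated through the T cell receptor.

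The study measured RNA from 20 arrays of mouse Treg cells to ask how protein prenylation, the attachment of a farnesyl or geranylgeranyl lipid, bears on their activation. CD4+ YFP+ CD44lo CD62Lhi Treg cells, called cTreg in the labels, were sorted from spleen and pLN of C57BL/6J mice that carry Foxp3YFP-Cre, in which a fused YFP and Cre is expressed from the Foxp3 locus. The DMSO 0 h group (3 arrays) is sorted cells for which no activation is given. All other groups were activated with 10 ug/ml of antibodies against CD3 and CD28 and 200 U/ml IL-2. They are FTI 18 h (3 arrays), GGTI 18 h (2 arrays) and DMSO 18 h (3 arrays), and FTI 48 h, GGTI 48 h and DMSO 48 h (3 arrays each). In the FTI and GGTI groups the cells were given the inhibitor 2 h before activation and kept in it. In this field the abbreviations stand for inhibitors of farnesyltransferase and of geranylgeranyl transferase, and the labels name neither the compounds nor their doses. All groups, DMSO included, carry the Foxp3YFP-Cre allele, and no floxed gene is listed. The ages of the mice and any pooling of mice are not stated.

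Values are log2 signals, so that a difference of 1 is a 2-fold change. The arrays read RNA and not protein. Where a protein is said to rise, fall or pass the test, its RNA is meant. The labels do not say whether the arrays of a group come from separate mice or cultures, so each p-value weighs a difference against array-to-array spread, part or all of which may be technical. With 2 or 3 arrays in a group, every value is of limited precision. Foxp3 (10.61 to 11.24), Cd4, Cd3e, Ctla4 and Ikzf2 were above the median of the negative controls on all 20 arrays, and the probe set of Il2ra on 17. Of 19 markers of other cells, 8 were above it on all 20 arrays: Cd79a of B cells, Cd68, Cst3 and Adgre1 of myeloid cells, Cd8a and Cd8b1 (7.84 to 8.82) of CD8 T cells, and Hba-a1 and Alas2 of red cells. A further 7 were above it on some arrays, Pax5 and Cd79b of B cells on 14 and 13 among them. The 4 others, Lyz2, Itgax, Ncr1 and Klrb1c of myeloid cells, dendritic cells and NK cells, were above it on 0. Negative-control medians were 5.58 to 5.67 on the DMSO 0 h arrays and 4.94 to 5.32 on the others. The mean of Mrps15 in DMSO 0 h, 5.31, lay below that background, so the size of its changes against this group is limited by background. Mrpl43 read at or below background there as well.

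The RNA of nearly all of the mitochondrial ribosomal proteins was higher after 18 h of activation. Of the 74 tested, 72 rose in DMSO 18 h cells against DMSO 0 h cells and 0 fell (limma over all 12462 genes tested, adjusted p under 0.05), where 60.9% of all genes tested were called and 33.7% were called higher. Their median log2 difference was 0.96, against 0.00 over all genes tested. The arrays of the groups did not overlap for 70 of the 74, against 59.6% of all genes. In bulk RNA a change in the share of cells that express a gene and a change in RNA per cell cannot be told apart, and RMA sets all arrays to the same distribution, so that a change in total RNA per cell does not show. Time in culture and activation cannot be told apart in this comparison either. All 12 mitosis genes rose as well (median 2.46). The summed signal of the 7 myeloid and dendritic markers was higher, at 10.78 to 10.81 on the DMSO 18 h arrays and 10.395 to 10.485 on the DMSO 0 h arrays. The 4 markers of CD8 T cells and NK cells summed to 8.39 to 8.71 on the DMSO 18 h arrays and 8.77 to 8.91 on the DMSO 0 h arrays, and the 3 red cell markers to 7.90 to 8.06 and 8.28 to 9.09 on the same arrays. The part of these genes in the rise was not tested.

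The median signal over the 74 genes was 8.80, 8.98 and 8.95 on the DMSO 18 h arrays, against 7.729, 7.995 and 7.860 on the DMSO 0 h arrays. The DMSO 18 h arrays therefore all lay above the DMSO 0 h arrays.

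**Figure D1:**
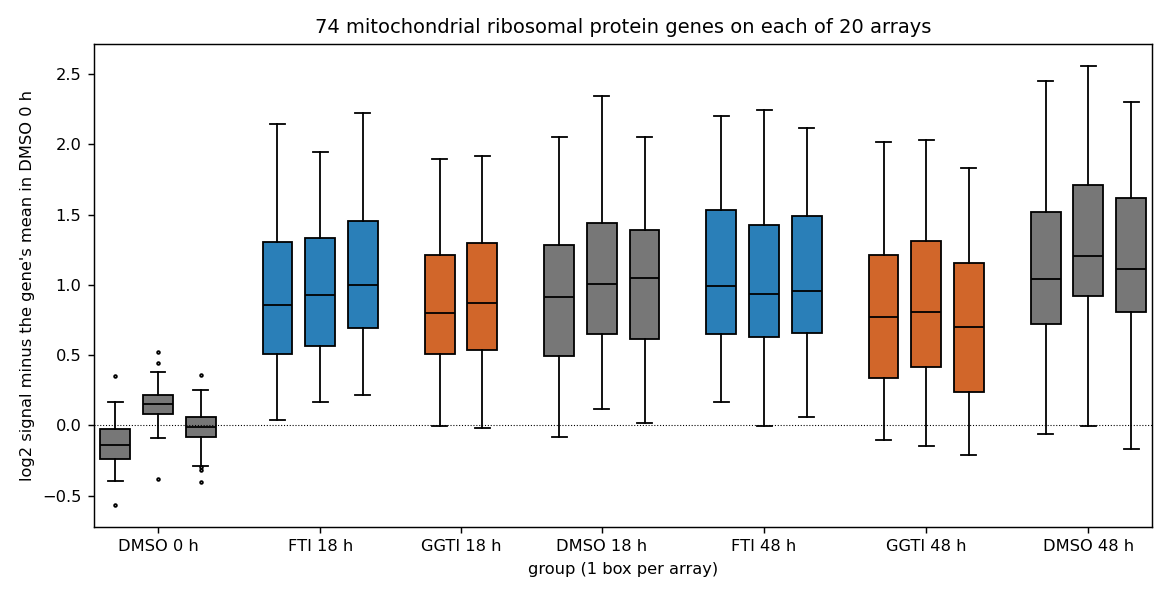
Log2 signal of the 74 tested genes on each of 20 arrays, minus each gene's mean in DMSO 0 h; each box spans the middle 50% of genes with the median as a line, whiskers reach 1.5 times the box, and points are genes beyond them. The DMSO 0 h arrays lie lowest, and the GGTI 48 h arrays, whose median log2 signals are 8.67 to 8.79, lie below the DMSO 48 h arrays, at 9.10 to 9.28.

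Among the large-subunit proteins, Mrpl12 forms the flexible stalk that recruits translation factors and has also been reported to bind the mitochondrial RNA polymerase. Its signal was 9.05, 9.18 and 9.21 in DMSO 18 h cells, against 7.24, 7.16 and 7.08 in DMSO 0 h cells. The rise was 1.99 ± 0.068 on the log2 scale (SE, limma adjusted p = 6.56e-14), or 3.96-fold, and the arrays did not overlap. Mrpl10, the protein that anchors this stalk to the particle, did not pass the test. It read 7.01, 7.10 and 6.94 in DMSO 18 h cells, against 6.64, 7.11 and 7.02 in DMSO 0 h cells, a difference of 0.09 ± 0.099 with a 95% interval of -0.11 to 0.30 (limma adjusted p = 0.429). The neighbouring stalk base protein Mrpl11 rose by 1.88. Other large-subunit proteins near the top of the order were Mrpl42 (1.91) and Mrpl51 (1.78), both mitochondria-specific, Mrpl19 (1.89) and Mrpl33 (1.72), which have bacterial kin, and Mrpl3 (1.73), which reaches towards the peptidyl transferase centre. Mrpl4, which lines the exit tunnel with Mrpl22, rose by 0.48.

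The small subunit holds the decoding site. Its Mrps15, kin of a bacterial protein that binds early in assembly, had the largest difference of the 74, 2.14 ± 0.13, from a level at background in DMSO 0 h cells. Mrps15 lay below the median over all probe sets of every DMSO 0 h array (6.17 to 6.20). It passed the filter through the activated groups, where it was higher, so its place among the genes tested rests on those groups. It read 7.36, 7.65 and 7.34 in DMSO 18 h cells, against 4.97, 5.41 and 5.55 in DMSO 0 h cells. Mrps27, a mitochondria-specific protein with pentatricopeptide repeats that binds mitochondrial ribosomal RNA, read 8.03, 8.11 and 8.12 in DMSO 18 h cells, against 6.31, 6.11 and 6.19 in DMSO 0 h cells. It rose by 1.88 ± 0.073 (limma adjusted p = 3.12e-13). Mrps12, a decoding-site protein, rose by 0.92, whereas Mrps24, which lies at the entry of the messenger RNA channel, did not pass the test (0.26 ± 0.127, limma adjusted p = 0.0861). Mrps9, Mrpl24 and Mrpl32 passed it with the smallest differences, 0.20, 0.28 and 0.31. Of the 72 calls, 6 were lost without at least 1 array, those of Mrps9 and Mrpl32 among them.

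The rise spread over both subunits and both classes of origin. In the large subunit 47 of 48 tested rose, with a median of 1.03, and in the small subunit 24 of 25, with a median of 0.88. Of the proteins with bacterial kin 45 of 47 rose, and of the mitochondria-specific ones 26 of 26. Mrps30 (now placed in the large subunit) rose by 0.55, and Mrps36, the dehydrogenase subunit, by 1.15.

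From 18 h to 48 h the DMSO cells changed far less. Of 74 genes, 18 rose and 1 fell in DMSO 48 h cells against DMSO 18 h cells (29.1% of all genes called, 16.4% higher and 12.6% lower), with a median of 0.16 on the log2 scale, against 0.00 over all genes tested. Against DMSO 0 h, 73 of 74 rose in DMSO 48 h cells (74.7% of all genes called, 38.5% higher), with a median of 1.11. A total of 71 of the 74 genes rose against DMSO 0 h at both times, as did 31.5% of all genes tested. Between 18 h and 48 h all 12 mitosis genes rose too (median 1.64). Other-cell sums were lower: red cell markers at 7.52 to 7.74 on the DMSO 48 h arrays and 7.90 to 8.06 on the DMSO 18 h arrays, and myeloid and dendritic markers at 10.61 to 10.72 and 10.78 to 10.81 on the same arrays. The 5 B cell markers summed to 7.46 to 7.799 on the DMSO 48 h arrays and 7.81 to 8.22 on the DMSO 18 h arrays. Against DMSO 0 h, the DMSO 48 h sum was higher for myeloid and dendritic markers (10.395 to 10.485 in DMSO 0 h). The sums were lower for B cell markers (8.03 to 8.37 in DMSO 0 h) and red cell markers (8.28 to 9.09 in DMSO 0 h). For CD8 T and NK cells the sum was lower too, at 8.33 to 8.71 on the DMSO 48 h arrays and 8.77 to 8.91 on the DMSO 0 h arrays. The part of these genes in the changes up to 48 h was not tested.

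Mrpl1, which sits on the stalk by which spent transfer RNA leaves, had the largest later rise. It read 6.45, 6.33 and 6.29 at 0 h, 7.14, 7.14 and 6.91 at 18 h and 7.59, 7.76 and 7.75 at 48 h in DMSO, a later rise of 0.64 ± 0.104 (limma adjusted p = 0.000181). Mrpl18, of the central protuberance, rose by 0.63 over the same interval, Mrpl13 by 0.61 and Mrpl35 by 0.59. Mrpl10, which had not passed at 18 h, rose by 0.39. Mrpl24, whose bacterial kin starts assembly of the large subunit, went the other way: its signal was 10.32, 10.56 and 10.55 at 0 h, 10.70, 10.84 and 10.75 at 18 h and 10.42, 10.48 and 10.31 at 48 h. It fell by 0.36 ± 0.077 between 18 h and 48 h and was the single gene of the 74 not called at 48 h against 0 h (limma adjusted p = 0.374). The counts of later calls ranged from 10 to 19 when 1 array was left out. They were 12 without DMSO 18 h array 1 or DMSO 48 h array 3 and 10 without DMSO 48 h array 2. The shares of all genes called in these fits were 20.7%, 22.7% and 18.3%, in that order.

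**Figure D2:**
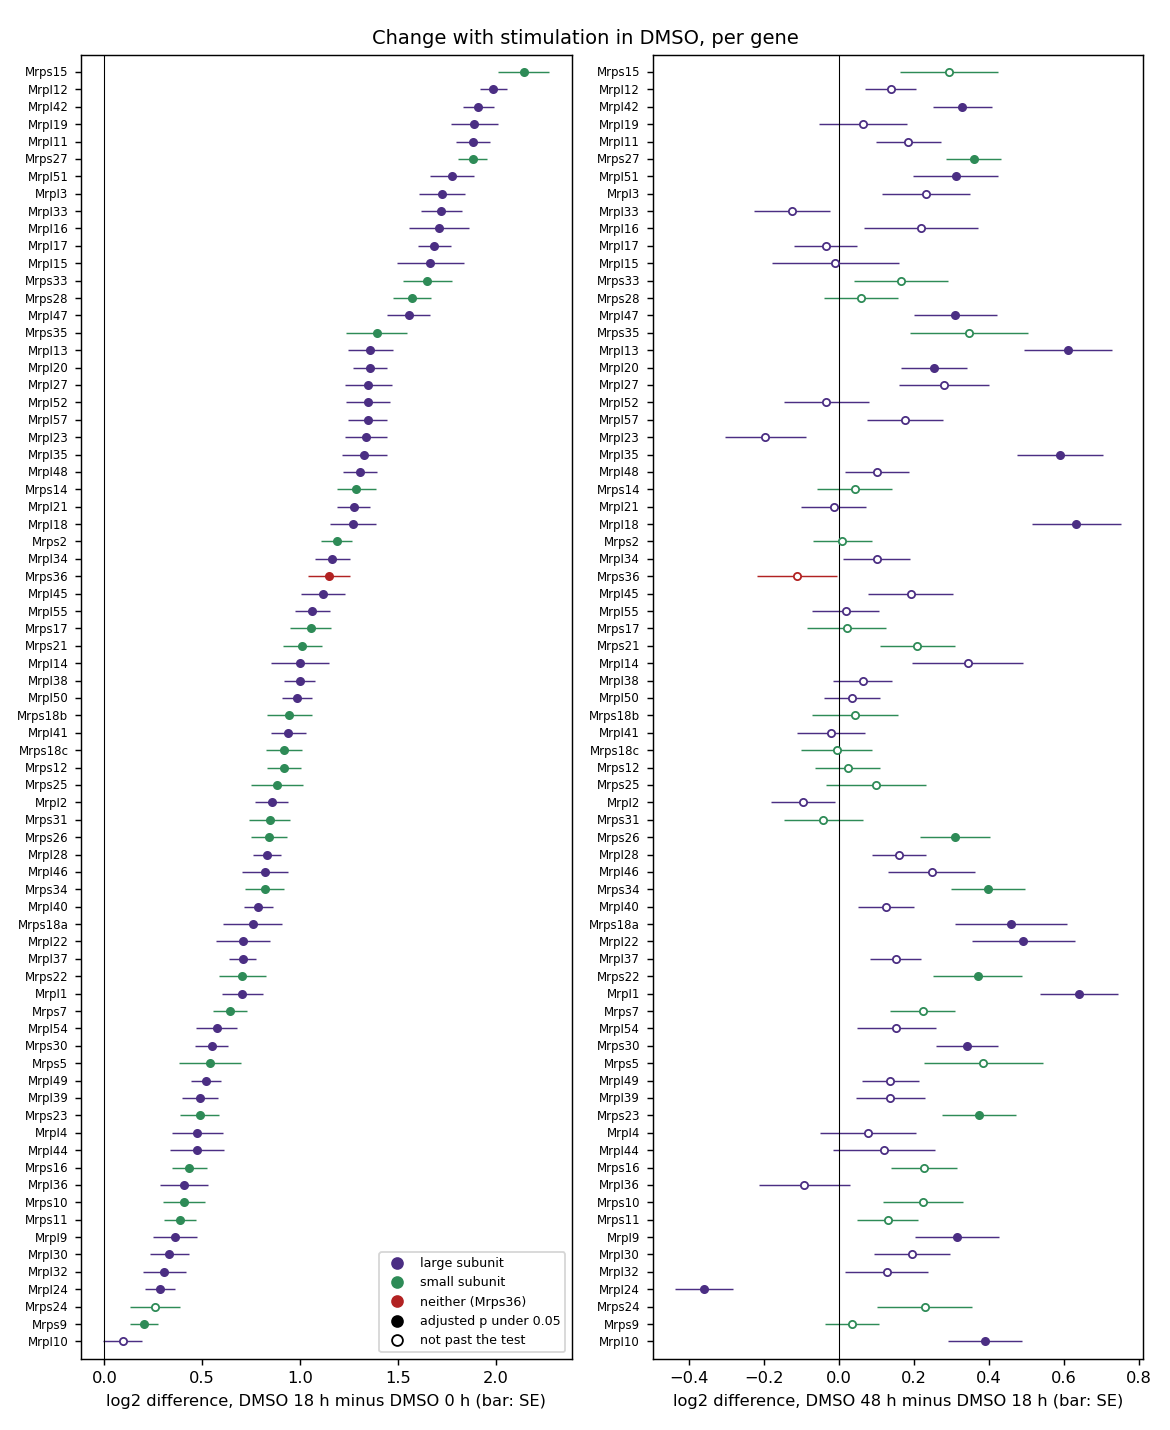
Log2 difference of each of the 74 genes, with its standard error, for DMSO 18 h minus DMSO 0 h (left) and DMSO 48 h minus DMSO 18 h (right), in the order of the left panel; filled points passed limma's test. The left panel runs from 0.09 for Mrpl10 to 2.14 for Mrps15, and 18 points on the right passed above 0.

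Few genes of the group passed the test with either inhibitor at 18 h. In FTI 18 h cells 0 of 74 genes passed limma's test against DMSO 18 h (3.3% of all genes called), and the median difference was -0.05. Of the 74, 4 had an unadjusted p under 0.05, as did 2067 of all 12462 genes tested. In GGTI 18 h cells 1 gene fell and 0 rose (5.94% of all genes called, 2.08% lower). An unadjusted p under 0.05 was found for 8 of the 74 and for 2294 of the 12462. The median was -0.11, against -0.01 over all genes tested, and 67 of 74 differences were below 0. Leaving out 1 array at a time, the median ran from -0.080 to -0.013 for FTI and from -0.165 (without DMSO 18 h array 1) to -0.072 (without GGTI 18 h array 1) for GGTI. The shares of all genes called moved as well: to 0.289% for FTI and 1.04% for GGTI with the compared arrays alone, to 1.21% for FTI without FTI 18 h array 1 and to 1.61% for GGTI without GGTI 18 h array 1. The red cell sum was 7.59 to 7.68 on the GGTI 18 h arrays and 7.90 to 8.06 on the DMSO 18 h arrays, and its part in the fall below was not tested. The gene that fell was Mrpl12, which read 8.93, 8.97 and 9.06 in FTI 18 h cells, 8.80 and 8.82 in GGTI 18 h cells and 9.05, 9.18 and 9.21 in DMSO 18 h cells. The GGTI arrays lay below both other groups. Its difference for GGTI was -0.34 ± 0.076 (limma adjusted p = 0.0128), and the call was lost when either GGTI 18 h array was left out. For FTI it was -0.16 ± 0.068 (limma adjusted p = 0.242). Set directly against each other at 18 h, GGTI and FTI differed in 0 of 74 genes by limma (2.29% of all genes called). An unadjusted p under 0.05 was found for 3 of the 74 and for 1670 of the 12462. For Mrpl12 the difference of GGTI from FTI was -0.18, with a 95% interval of -0.34 to -0.02.

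Few of the proteins passed the test with FTI at 48 h, and those that did were lower. Of 74 genes, 6 fell and 0 rose against DMSO 48 h, or 8.11% (7.66% of all genes called, 3.08% lower). The share called in either direction was thus near that of all genes. The median difference was -0.14, against 0.00 over all genes tested, and 67 were below 0. The 6 were Mrpl35 (-0.48), Mrps22 (-0.44), Mrpl12 (-0.38), Mrpl20 (-0.34), Mrpl42 (-0.33) and Mrpl39 (-0.31). Mrpl35 and Mrpl20 are bacterial-type proteins of the large subunit, and Mrps22 is a mitochondria-specific protein of the small subunit in which mutations cause mitochondrial disease in humans. The call for Mrpl12 alone held whichever array was left out. Leaving out FTI 48 h array 1 or DMSO 48 h array 2 brought the 6 calls to 1, and leaving out FTI 48 h array 2 or DMSO 48 h array 3 brought them to 2. The shares of all genes called in these fits were 4.2%, 4.21%, 5.95% and 4.72%, in that order. The myeloid and dendritic markers summed to 10.84 to 10.89 on the FTI 48 h arrays and 10.61 to 10.72 on the DMSO 48 h arrays, and the 6 Treg and T cell markers to 12.90 to 12.94 and 12.84 to 12.875 on the same arrays. Their part in the falls was not tested.

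Most of the group was lower with GGTI at 48 h. Of 74 genes, 52 fell and 0 rose in GGTI 48 h cells against DMSO 48 h cells (40.3% of all genes called, 21.9% lower). The median difference was -0.35, against -0.01 over all genes tested, 69 of 74 were below 0, and the arrays did not overlap for 61, against 55.2% of all genes. By subunit, 33 of 48 large-subunit and 19 of 25 small-subunit proteins fell, and by origin, 31 of 47 with bacterial kin and 21 of 26 mitochondria-specific ones. The median signal over the 74 genes was 8.79, 8.77 and 8.67 on the GGTI 48 h arrays, against 9.10, 9.28 and 9.18 on the DMSO 48 h arrays, with no overlap. Most of the falls were under 2-fold, and 2 reached it, as did 252 of all 12462 genes tested. Leaving out 1 array at a time gave 38 to 52 calls, with 34.1% to 36.6% of all genes called. Of the 52 genes, 36 were called each time.

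Mrpl38, a mitochondria-specific protein of the central protuberance, fell most. It read 7.65, 7.56 and 7.72 in GGTI 48 h cells, against 8.78, 8.84 and 8.67 in DMSO 48 h cells. The log2 difference was -1.12 ± 0.079 (limma adjusted p = 2.97e-09), which leaves 0.459 of the DMSO signal, and the lowest DMSO 48 h array lay well above the highest GGTI 48 h array. Mrps27 read 7.44, 7.38 and 7.48 in GGTI 48 h cells, against 8.44, 8.45 and 8.45 in DMSO 48 h cells. The DMSO arrays hardly differed among themselves, and the difference was -1.01 ± 0.073 (limma adjusted p = 4.78e-09). Mrpl12 read 8.56, 8.55 and 8.45 in GGTI 48 h cells, against 9.22, 9.31 and 9.32 in DMSO 48 h cells, a difference of -0.76 ± 0.068. Its partner in the stalk, Mrpl10, did not pass the test (-0.25 ± 0.099, limma adjusted p = 0.0514).

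Further falls came from proteins of several sites. Mrpl47, at the exit of the nascent chain, fell by 0.97, with 8.13, 7.96 and 7.94 in GGTI 48 h cells, against 8.87, 9.05 and 9.01 in DMSO 48 h cells. Mrps5, whose bacterial kin affects the fidelity of decoding, fell by 0.92 ± 0.16, and the exit-tunnel protein Mrpl22 fell by 0.78 ± 0.138. Mrps28 (-0.78) and Mrps22 (-0.76) of the small subunit fell, as did Mrpl13 (-0.72) and Mrpl3 (-0.63) of the large subunit. Mrps30 (-0.39), Mrpl4 (-0.33) and Mrps12 (-0.32) fell less. The test was not passed by Mrps36, at -0.24 ± 0.106 (limma adjusted p = 0.0845).

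A few proteins stayed near 0 or lay above it without passing the test. Mrpl33, whose bacterial kin lies near the exit site for transfer RNA, differed by 0.01 ± 0.102 (95% interval -0.20 to 0.23), and Mrpl24 by -0.04 ± 0.077 (95% interval -0.20 to 0.12). Mrpl14, at the interface of the subunits, read 8.75, 8.93 and 8.70 in GGTI 48 h cells, against 8.32, 8.75 and 8.55 in DMSO 48 h cells, so that the highest DMSO array reached into the range of the GGTI arrays. Its difference of 0.26 ± 0.148 was the highest of the 74 (limma adjusted p = 0.188). Mrpl27, kin of a bacterial protein that reaches into the peptidyl transferase centre, differed by 0.14, and the mitochondria-specific Mrpl52 by 0.13.

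**Figure D3:**
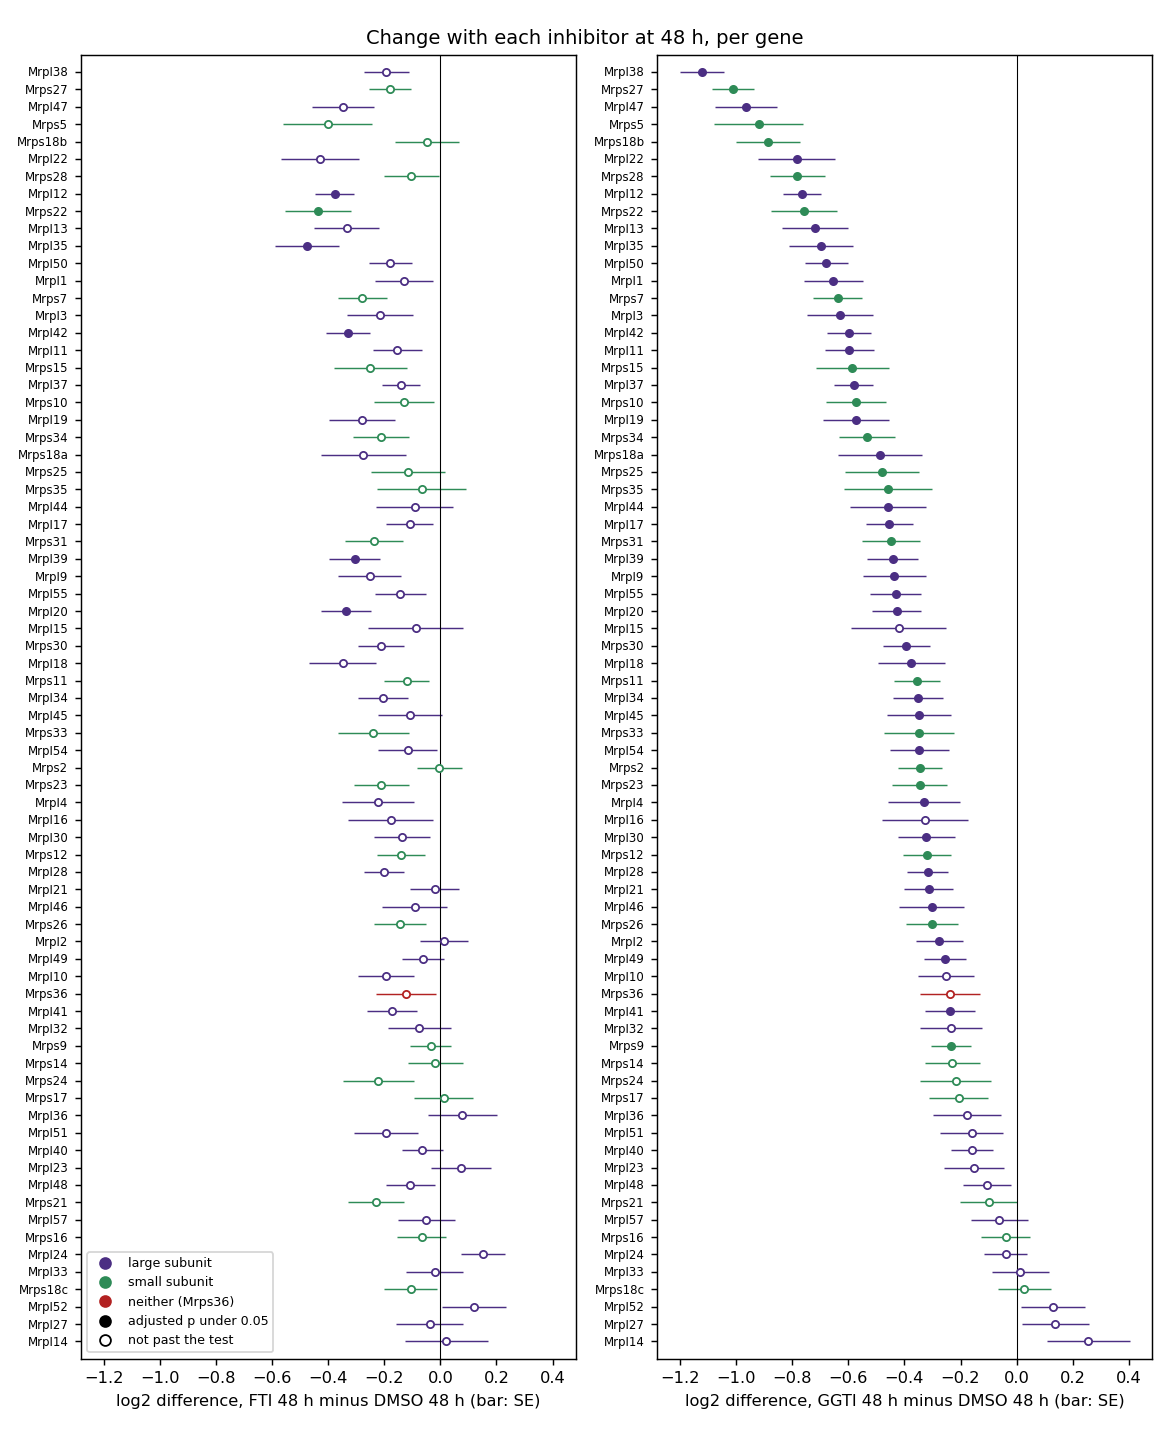
Log2 difference of each of the 74 genes, with its standard error, for FTI 48 h minus DMSO 48 h (left) and GGTI 48 h minus DMSO 48 h (right), on the same scale and in the order of the right panel; filled points passed limma's test. The right panel runs from -1.12 for Mrpl38 to 0.26 for Mrpl14 with 52 filled points, and the left panel has 6.

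Summed signals of some markers of other cells differed with GGTI at 48 h. The sum of the 3 red cell markers was 8.57 to 8.73 on the GGTI 48 h arrays and 7.52 to 7.74 on the DMSO 48 h arrays. Of these 3, 1 rose and 0 fell, with log2 differences from -0.06 to 2.06. The sum for the 4 markers of CD8 T cells and NK cells was 8.91 to 9.16 on the GGTI 48 h arrays and 8.33 to 8.71 on the DMSO 48 h arrays. Of the 2 of these that passed the filter, 1 rose, and the differences were -0.17 and 0.78. Both sums can thus be led by 1 gene. The 7 myeloid and dendritic markers summed to 10.95 to 10.998 on the GGTI 48 h arrays and 10.61 to 10.72 on the DMSO 48 h arrays, a sum led by Cst3, which many cells express. The 5 B cell markers summed to 7.75 to 7.83 on the GGTI 48 h arrays and 7.46 to 7.80 on the DMSO 48 h arrays, which overlapped. Of these lists Cd8a, Cd8b1, Cd68, Adgre1, Cst3, Cd79a, Hba-a1 and Alas2 were above the negative-control median on all 20 arrays, while Ncr1, Klrb1c, Lyz2 and Itgax were above it on 0. The part of these markers in the falls was not tested. The 12 mitosis genes, whose levels follow proliferation, had a median difference of 0.12.

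The 3 members of the Mrps18 family had unlike values under GGTI, and the differences between them were not tested. All descend from the same bacterial small-subunit protein, but Mrps18c keeps its place, Mrps18b sits elsewhere in the small subunit, and Mrps18a sits in the large subunit. At 48 h Mrps18b read 7.67, 7.65 and 7.91 in GGTI cells, against 8.65, 8.62 and 8.63 in DMSO cells, a difference of -0.89 ± 0.114 (limma adjusted p = 5.5e-06). Mrps18a read 9.33, 9.53 and 9.13 in GGTI 48 h cells, against 9.68, 9.89 and 9.87 in DMSO 48 h cells, a difference of -0.49 ± 0.15 whose call depended on the arrays (limma adjusted p = 0.0144, lost without either of 2 arrays). Mrps18c read 9.87, 9.85 and 9.78 in GGTI 48 h cells, against 9.61, 9.93 and 9.88 in DMSO 48 h cells, so that the groups overlapped (difference 0.03 ± 0.093, 95% interval -0.17 to 0.22). After 18 h of activation the 3 had risen by 0.76 (Mrps18a), 0.95 (Mrps18b) and 0.92 (Mrps18c) against DMSO 0 h.

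**Figure D4:**
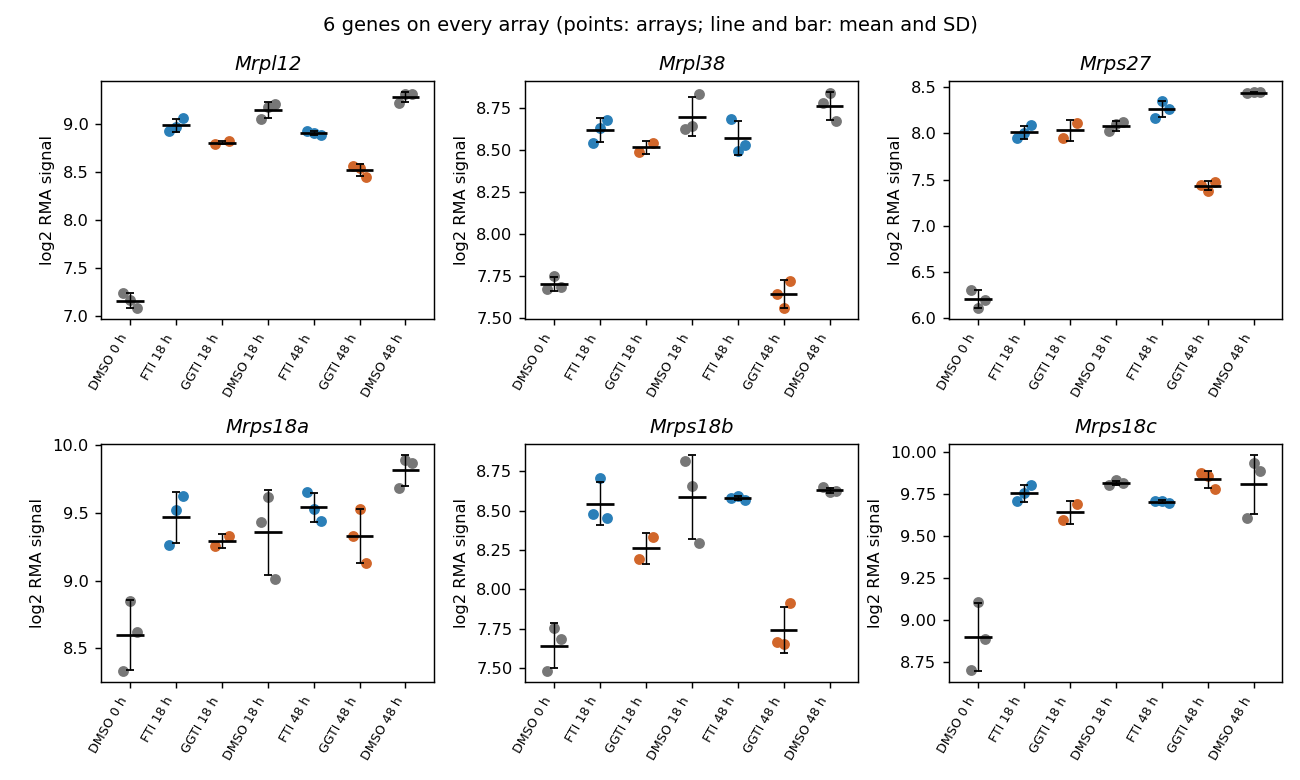
Log2 signal of 6 genes on each of 20 arrays (points), with the mean and SD of each group (line and bar); each panel has its own axis, which does not start at 0. In GGTI 48 h, Mrpl38, Mrps27 and Mrps18b lie below DMSO 48 h on every array, while Mrps18c overlaps it.

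The promoters of the Mrps18 genes and of Mrps27 are shown because all 4 genes rose with activation while their differences under GGTI at 48 h ran from -1.01 (Mrps27) to 0.03 (Mrps18c). Each window covers 250 bases before to 50 after the annotated start (RefSeq, build GRCm38.p6), written 5′ to 3′ on the gene's strand. Capitals mark letters matched by any of 6 short motifs searched on both strands.
Mrps27 (chr13:99344536-99344835, plus strand): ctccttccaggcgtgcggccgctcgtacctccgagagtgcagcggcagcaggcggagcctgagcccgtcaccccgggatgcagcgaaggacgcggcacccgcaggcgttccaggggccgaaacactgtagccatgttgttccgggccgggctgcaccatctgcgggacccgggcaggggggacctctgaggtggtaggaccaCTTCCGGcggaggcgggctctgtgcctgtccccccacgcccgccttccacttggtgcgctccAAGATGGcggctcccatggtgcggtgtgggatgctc
Mrps18a (chr17:46110754-46111053, plus strand): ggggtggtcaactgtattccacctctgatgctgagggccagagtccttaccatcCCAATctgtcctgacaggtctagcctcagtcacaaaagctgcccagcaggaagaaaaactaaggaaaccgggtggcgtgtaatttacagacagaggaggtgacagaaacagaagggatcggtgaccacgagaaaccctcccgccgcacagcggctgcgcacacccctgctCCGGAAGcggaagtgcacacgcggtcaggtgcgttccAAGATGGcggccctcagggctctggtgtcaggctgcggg
Mrps18b (chr17:35916391-35916690, minus strand): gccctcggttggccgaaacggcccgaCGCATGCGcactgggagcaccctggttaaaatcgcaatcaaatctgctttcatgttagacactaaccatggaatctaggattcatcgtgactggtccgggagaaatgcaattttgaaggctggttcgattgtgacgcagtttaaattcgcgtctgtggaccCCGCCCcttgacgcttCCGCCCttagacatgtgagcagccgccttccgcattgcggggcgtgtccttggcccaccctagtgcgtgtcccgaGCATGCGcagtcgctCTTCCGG
Mrps18c (chr5:100798509-100798808, plus strand): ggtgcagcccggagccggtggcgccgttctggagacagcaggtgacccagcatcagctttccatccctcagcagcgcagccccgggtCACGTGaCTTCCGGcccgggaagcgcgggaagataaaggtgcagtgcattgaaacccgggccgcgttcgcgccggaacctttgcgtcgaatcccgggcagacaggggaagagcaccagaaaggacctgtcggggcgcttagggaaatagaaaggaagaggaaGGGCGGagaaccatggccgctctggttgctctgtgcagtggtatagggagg
The motif CCGGAAG, the core bound by the ETS family factor GABP, was found in all 4 windows, and GCATGCG, the core of the NRF1 site, in 2 places of that of Mrps18b. At the first, towards the 5′ end, matches on both strands overlap, and at the second, near the start, the letters match on 1 strand. Of the 72 promoter windows found for 66 of the 75 genes, 33.3% held CCGGAAG, against 8.86% of 32851 windows of all genes and 17.3% of the windows of genes tested here. GCATGCG was in 11.1% of the 72 windows, against 3.58% of all windows and 6.06% of those of tested genes, and AAGATGG, the core of the YY1 site, in 18.1%, against 6.34% and 7.17%. The other motifs were GGGCGG (52.8%, against 35.7% and 60%), CCAAT (40.3%, against 37.4% and 38.0%) and CACGTG (9.72%, against 7.15% and 9.78%). A match describes the letters of the window and is not a bound site.

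The motifs were set beside the responses as a description. The 23 tested genes with CCGGAAG had a median rise of 1.27 at 18 h of activation and the 42 without it 0.84. Under GGTI at 48 h their medians were -0.32 and -0.35. For GCATGCG the medians were 0.60 in 8 genes with it and 0.98 in 57 without at 18 h, and -0.44 and -0.35 under GGTI. For AAGATGG they were 0.71 in 13 genes with it and 0.99 in 52 without at 18 h, and -0.36 and -0.35 under GGTI. At 18 h the medians with and without were 0.85 and 0.96 for CACGTG, 0.92 and 0.98 for GGGCGG, and 0.87 and 1.01 for CCAAT. Under GGTI these were -0.28 and -0.35, -0.29 and -0.39, and -0.38 and -0.35, in that order. None of these splits was tested.

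Set directly against FTI at 48 h, GGTI had 25 of the 74 genes lower and 0 higher (27.5% of all genes called, 13.9% lower), with a median of -0.22, against -0.02 over all genes tested. Mrpl38 read 7.65, 7.56 and 7.72 in GGTI 48 h cells, against 8.69, 8.50 and 8.53 in FTI 48 h cells, a difference of -0.93 ± 0.079 (limma adjusted p = 8.13e-08). Mrps27 read 7.44, 7.38 and 7.48 with GGTI, against 8.17, 8.35 and 8.27 with FTI, a difference of -0.83. Neither gene's arrays overlapped between the inhibitors. Mrps18b (-0.84), Mrps28 (-0.68), Mrpl47 (-0.62) and Mrpl12 (-0.39) were lower with GGTI too. For other genes the inhibitors were not shown to differ after adjustment over all genes: Mrps30 differed by -0.18 with a 95% interval of -0.35 to -0.01, and Mrpl4 by -0.11 with -0.38 to 0.16. All intervals are for 1 gene, with no adjustment for the number of genes. Without GGTI 48 h array 3 the 25 calls became 15, with 23.1% of all genes called. The red cell sum was 8.57 to 8.73 on the GGTI 48 h arrays and 7.64 to 7.86 on the FTI 48 h arrays, the sums for CD8 T and NK cells and for myeloid and dendritic cells were also higher with GGTI on every array, and their part in these differences was not tested. The labels give no doses, so the comparison of the inhibitors is matched in time alone.

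Whether the effect of GGTI changed between 18 h and 48 h was tested by the interaction of inhibitor and time. It was more negative at 48 h for 14 of 74 genes and less negative for 0 (9.51% of all genes called, 4.54% lower), with a median of -0.27. Mrps27 differed by -0.96 ± 0.11 (limma adjusted p = 1.56e-05) and Mrpl38 by -0.94 ± 0.118 (limma adjusted p = 4.49e-05). At 18 h Mrps27 had read 7.96 and 8.12 with GGTI, against 8.03, 8.11 and 8.12 with DMSO, which overlapped. Calls fell to 9 without DMSO 18 h array 1, GGTI 18 h array 1 or GGTI 48 h array 3, to 8 without DMSO 48 h array 2, and to 6 without GGTI 18 h array 2. The shares of all genes called in these fits were 7.38%, 6.98%, 7.76%, 7.09% and 5.54%, in that order. Mrps27, Mrpl38, Mrps28, Mrpl42 and Mrpl37 were called in every such fit. For FTI, 0 of 74 genes passed the corresponding limma test (0.433% of all genes called).

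GGTI 48 h cells nevertheless stood above DMSO 0 h cells for most of the group. In this comparison, added after the values were seen, 59 of 74 genes were higher and 0 lower (68% of all genes called, 36.2% higher), with a median of 0.76. Mrpl24 and Mrpl38 had GGTI 48 h means at or below their DMSO 0 h means. Mrpl38 read 7.65, 7.56 and 7.72 in GGTI 48 h cells, against 7.68, 7.75 and 7.68 in DMSO 0 h cells, so that these arrays overlapped (95% interval of the difference -0.23 to 0.10). Mrps18b differed by 0.10 and Mrps5 by 0.00, and neither passed the test. Mrps27, by contrast, stayed above DMSO 0 h, at 7.44, 7.38 and 7.48 in GGTI 48 h cells, against 6.31, 6.11 and 6.19 in DMSO 0 h cells. The myeloid and dendritic sum was higher in GGTI 48 h than in DMSO 0 h (10.95 to 10.998, against 10.395 to 10.485). So was the CD8 T and NK sum (8.914 to 9.163, against 8.774 to 8.912). The B cell sum was lower (7.75 to 7.83, against 8.03 to 8.37), and the red cell sums overlapped. The part of these markers in the differences was not tested.

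Across the 74 genes, the rise at 18 h and the fall under GGTI at 48 h were weakly related. With no array shared, the differences of DMSO 18 h from DMSO 0 h and of GGTI 48 h from DMSO 48 h had a Pearson r of -0.179 and a Spearman rho of -0.174. The GGTI differences at 18 h and 48 h, each from its own DMSO arrays, had an r of 0.448 and a rho of 0.449. These are descriptions across genes of the same arrays, and genes are not independent replicates.

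The genes whose 7 group means followed the median of the 74 most closely were Mrpl35 (Pearson r = 0.991), Mrpl13 (0.991), Mrpl20 (0.989), Mrps18a (0.988) and Mrpl28 (0.987). The least alike were Mrpl24 (0.103), Mrps9 (0.716), Mrpl38 (0.717), Mrpl36 (0.729) and Mrpl44 (0.744). Mrpl24 rose little and then fell, while the mean of Mrpl38 was 7.70 in DMSO 0 h, 8.70 in DMSO 18 h and 7.64 in GGTI 48 h.

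Most called genes in other lists for mitochondrial translation rose with activation and fell under GGTI. Over all genes tested, 33.7% rose and 27.2% fell at 18 h, and 18.4% rose and 21.9% fell under GGTI at 48 h. The 5 mitoribosomal proteins with other names all rose at 18 h of activation (median 0.56). Under GGTI at 48 h 2 of the 5 fell, the small-subunit protein Ptcd3 (-0.84) and the large-subunit protein Gadd45gip1 (-0.45). Mrpl58, which releases stalled chains and is listed in the file under an older symbol, rose by 0.61 at 18 h and differed by 0.03 ± 0.075 under GGTI at 48 h (limma adjusted p = 0.766). Of 15 translation factors, 10 rose and 0 fell at 18 h (median 0.99), and 9 fell and 0 rose under GGTI at 48 h (median -0.42). Lrpprc, which stabilises mitochondrial messenger RNA, rose by 1.27 at 18 h and fell by 1.004 under GGTI (log2 scale). In DMSO 0 h cells Lrpprc read 5.90, 5.95 and 5.90, near the negative-control medians of those arrays (5.58 to 5.67), so the size of its rise is limited by background. It lay below the median of each of those arrays and passed the filter through the activated groups, where it was higher. The elongation factor Gfm1 rose by 1.26 and fell by 0.72. The release factor Mtrf1 rose by 0.99 and fell by 0.95.

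Of 23 assembly factors of the mitochondrial ribosome, 14 rose and 4 fell at 18 h (median 0.38), and 2 rose and 10 fell under GGTI at 48 h (median -0.27). Fastkd2, needed for mitochondrial ribosomal RNA, rose by 2.77 ± 0.178 at 18 h and fell by 1.42 ± 0.178 under GGTI. Mrm3, which methylates the large ribosomal RNA of mitochondria, rose by 1.42 and fell by 0.84. Of 17 mitochondrial aminoacyl tRNA synthetases, which charge the transfer RNAs, 9 rose and 0 fell at 18 h, and 0 rose and 7 fell under GGTI, with Yars2 at 1.26 and -1.03. In either direction 52.9% of the synthetases were called at 18 h and 41.2% under GGTI, against 60.9% and 40.3% of all genes. Of 12 genes for the transcription and copying of mitochondrial DNA, 8 rose and 1 fell at 18 h, and 1 rose and 5 fell under GGTI. The topoisomerase Top1mt fell by 0.99, the transcription factor Tfb2m fell by 0.79 and the DNA-packaging factor Tfam fell by 0.43. The polymerase subunit Polg2 went against the other called genes of this list, with -1.73 at 18 h and 0.32 under GGTI.

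Respiratory chain genes mostly rose with activation, while most cytosolic ribosomal proteins passed the test in neither direction. Of 82 respiratory chain genes, 71 rose and 4 fell at 18 h (median 0.69), and 3 rose and 13 fell under GGTI at 48 h (median -0.08). Of 85 cytosolic ribosomal proteins, 8 rose and 9 fell at 18 h (median -0.01), and 0 rose and 12 fell under GGTI (median -0.08). Of these 85, 75 had a DMSO 0 h mean above 10 on the log2 scale, as did 3 of the 74 Mrpl and Mrps genes. The median DMSO 0 h levels were 11.54 and 7.89, in that order, and the highest value on any array ran from 12.78 to 12.93. The part of signal level in the contrast of these 2 lists was not tested. All 12 mitosis genes rose at 18 h (median 2.46). Under GGTI at 48 h 1 of them rose and 0 fell (median 0.12), the 1 being the spindle protein Nusap1 (0.87). Differences between the lists were not tested.

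**Figure D5:**
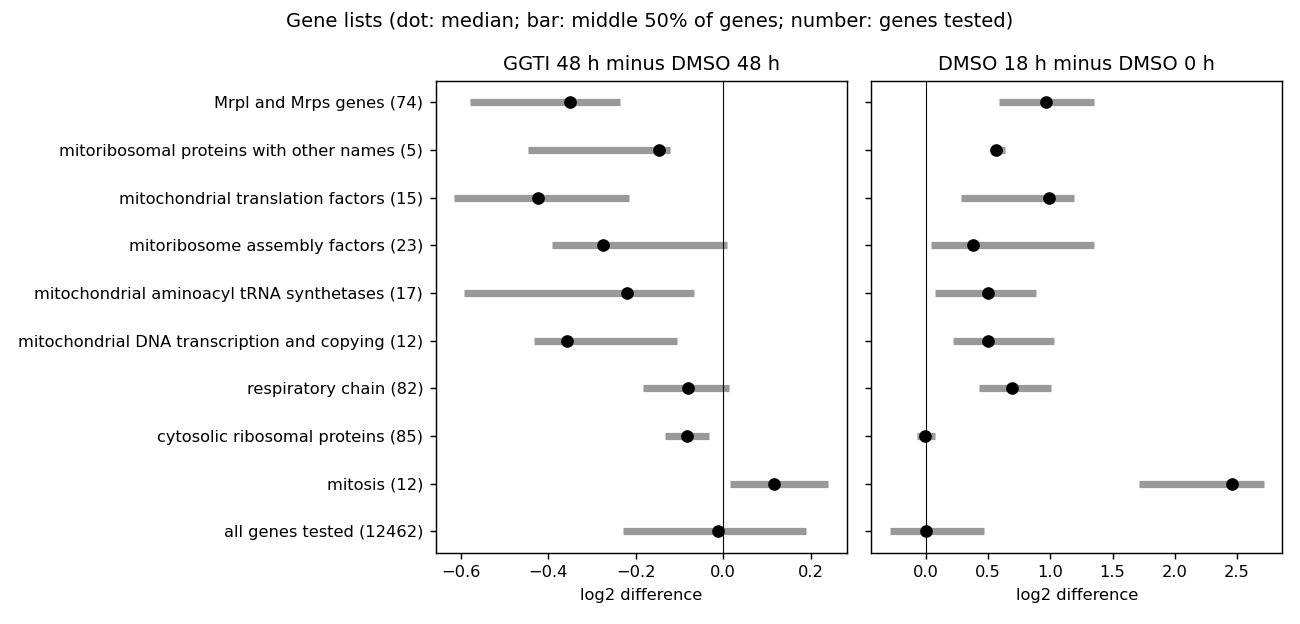
Median log2 difference (dots) and the middle 50% of genes (bars) of each gene list, with the number of genes tested, for GGTI 48 h minus DMSO 48 h (left) and DMSO 18 h minus DMSO 0 h (right). The 74 Mrpl and Mrps genes had medians of -0.35 and 0.96, and the 85 cytosolic ribosomal proteins -0.08 and -0.01.

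Of 10 regulators named in the literature for mitochondrial genes, 3 rose and 3 fell at 18 h, and 0 rose and 4 fell under GGTI at 48 h. These shares are close to the 60.9% and 40.3% of all genes called in either direction. Pprc1, a coactivator related to PGC-1 that responds to growth signals, read 6.94, 7.38 and 7.26 in DMSO 18 h cells, against 6.04, 6.30 and 6.40 in DMSO 0 h cells, a rise of 0.94 ± 0.139. It read 6.47, 6.20 and 6.40 in GGTI 48 h cells, against 7.03, 7.39 and 7.06 in DMSO 48 h cells, a difference of -0.80 ± 0.139 (limma adjusted p = 0.000137), with no overlap. Gabpa, the DNA-binding subunit of GABP, differed by 0.25 at 18 h, which did not pass the test, and fell by 0.48 under GGTI. Nrf1 fell in both comparisons (-0.67 at 18 h and -0.29 under GGTI). Myc, a driver of growth, rose by 1.25 ± 0.256 at 18 h, with DMSO 0 h array 2 far below the others of its group (10.87, 9.24 and 10.74), and under GGTI at 48 h differed by 0.03 ± 0.256 (limma adjusted p = 0.941).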

How the data were processed

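RNA was measured on 20 arrays in 7 groups, set by the inhibitor and time in the labels. Per the labels' protocols, total RNA was amplified and labelled with biotin. RMA in Affymetrix Expression Console 1.1 was used by the authors, per the submitters' processing notes. This method subtracts background, gives every array the same distribution of signals and combines the probes of a set into 1 deposited log2 value. Both deposited tables hold the same values (to within 1.8e-15), and no 2 arrays were copies (smallest mean absolute difference 0.149). The table holds 28846 probe sets, 22202 of them with 1 gene symbol, and 20468 matched a RefSeq accession, as did all 75 members.

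A probe set was kept when it was above its array's median on at least 2 arrays, and the set of highest mean stood for each symbol, which left 12462 genes. Comparisons were fitted to all 20 arrays, with a mean per group, in R 4.3.3 with limma 3.58.1 (13 residual and 4.98 prior degrees of freedom), 2-sided, with Benjamini-Hochberg adjustment over all genes tested at 0.05. The SE of a log2 difference follows the ± sign. The test was also tried on data simulated from the DMSO 48 h means and the residual spreads of these arrays. The simulated noise was drawn separately for each gene and array. The trial therefore cannot show effects shared by the genes of an array, and no conclusion is drawn from it. No array was dropped. Summed marker signals add the linear signals and return to log2. A listed marker is not reported here and is left out of the sums. Named genes are, per comparison, up to 10 called members with the largest and smallest differences, the 3 nearest 0 and a fixed set (Mrpl12, Mrps12, Mrpl10, Mrpl3, Mrpl4, Mrpl58, Mrps18a, Mrps18b, Mrps18c, Mrps30 and Mrps36). Other genes are examples from their lists, chosen after their values were seen. Members and lists were chosen with earlier results of these data known. Alternatives were no filter, 2 centrings, fitting the compared arrays alone, array quality weights, averaging probe sets per symbol, and leaving out each array.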

Additional observations from a re-analysis of the deposited data

Results flagged for a closer look

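The effect of GGTI against DMSO differed between 18 h and 48 h, by the interaction term in limma (adjusted p under 0.05 over all genes tested), for 14 of 74 genes, all more negative at 48 h. On the log2 scale the 48 h effect minus the 18 h effect was -0.963 for Mrps27, -0.939 for Mrpl38, -0.689 for Mrpl22, -0.672 for Mrps22, -0.649 for Mrps28, -0.643 for Mrpl1 and -0.623 for Mrpl47. It was -0.559 for Mrps18b, -0.533 for Mrpl42, -0.492 for Mrpl11, -0.469 for Mrpl37, -0.453 for Mrps7, -0.425 for Mrpl12 and -0.403 for Mrpl50. The GGTI 18 h group has 2 arrays, and 9 of the 14 calls were lost without at least 1 array. No group held enough arrays for a test of single arrays that stand apart.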

How the results depend on the processing

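No paired analysis was possible because the labels give no replicate numbers. Under the alternatives, the 218 values of the genes named per comparison were followed, not those of all 74 genes. Of the resulting values, 2799 kept direction and side of the threshold, 106 lost the call, 19 gained it and 0 reversed. Over all called genes, calls lost without at least 1 array were 16 of 52 for GGTI 48 h and 5 of 6 for FTI 48 h, each against DMSO 48 h. They were 11 of 25 for GGTI 48 h against FTI 48 h. Against DMSO 0 h they were 6 of 72 for DMSO 18 h and 1 of 73 for DMSO 48 h. The 1 call of GGTI 18 h against DMSO 18 h became 0 with the compared arrays alone and 2 without the arrays of lowest quality weight (DMSO 0 h array 2 and DMSO 18 h array 3, an alternative added after seeing the data). The 6 calls of FTI 48 h against DMSO 48 h became 3 with no filter, 11 with the compared arrays alone and 17 with array quality weights, while the share of all genes called, 7.66%, became 3.11%, 10.3% and 17%. The 14 calls of the GGTI interaction became 9 with no filter, while the share of all genes called, 9.51%, became 4.14%. For DMSO 48 h against DMSO 18 h, centring on the median of gene probe sets gave 35 calls, against 19, and a median of 0.25, against 0.16. Centring on the median of all probe sets moved the median of all genes by 0.11 at DMSO 18 h, 0.17 at DMSO 48 h and 0.12 at GGTI 48 h, each against DMSO 0 h, and the medians of the 74 genes to 1.07, 1.29 and 0.88. Relative to all genes these medians stayed at 0.96, 1.13 and 0.77. The cause of these changes was not tested.

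Leaving out 1 array at a time, the calls ranged from 0 to 1 for FTI 18 h (1 without DMSO 18 h array 1), 0 to 2 for GGTI 18 h (2 without DMSO 18 h array 3), 1 to 6 for FTI 48 h and 38 to 52 for GGTI 48 h, each against DMSO of its time. They ranged from 15 to 22 for GGTI 48 h against FTI 48 h, 10 to 19 for DMSO 48 h against DMSO 18 h and 6 to 14 for the GGTI interaction. Against DMSO 0 h they were 68 to 72 for DMSO 18 h, 72 to 73 for DMSO 48 h and 55 to 63 for GGTI 48 h. The shares of all genes called moved in these fits as well. Signal over background limits Mrps15 and Mrpl43.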
